A study of Mus musculus with 16 samples.

Results

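The comparison described here set 4 arrays of wild-type mice aged 1 year against 4 arrays of wild-type mice aged 1 month (postnatal day 30). These are 8 of the 16 arrays of the series. All 8 samples are labelled as male, of the strain background C57Bl/6J, with no treatment named. Each held RNA of retina and retinal pigment epithelium (RPE) in 1 extract, and which of them a transcript came from was not measured. The other 8 arrays, from nm3342 mutants of the same background and ages, entered the fit for its estimate of the spread and for a test of where the age change differed. By its title the series treats nm3342 as a possible model of detachment of the retina by fluid, and the mutated gene is not named. The labels give 4 mice per time point but not how mice map to arrays, so p-values measure the spread between these samples.

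The neural retina is a sheet of photoreceptors, interneurons, ganglion cells and Müller glia, and the RPE is the pigmented layer behind it that recycles visual pigment and takes up shed photoreceptor discs. At 1 month a mouse retina is fully laminated and sees, and the year that follows covers late maturation and adult ageing. Ageing retina is known for activation of microglia, the resident immune cells, for rising complement and antigen presentation, and for macrophages that gather between photoreceptors and RPE.

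Values are levels on a log2 scale on which 0 is the array's 75th percentile, and a change is the 1-year mean minus the 1-month mean ± the standard error of the limma fit (n = 4 arrays per group). Genes count as called where the p adjusted by Benjamini-Hochberg over 19022 genes was under 0.05. Between 82.1% and 89.6% of the spots on an array were well above background, and the number of arrays limits the precision. Markers of rods, cones, interneurons, Müller glia, RPE and microglia were well above background on all 8 wild-type arrays, except Best1, which did not pass the filter. Sex-linked genes matched the male label on every wild-type array and did not on 3 mutant arrays. On the slides, every 1-month wild-type array lay in column 3 or 4 and every 1-year wild-type array in column 1 or 2. Age and array column therefore cannot be told apart within the wild type. Among the mutants, 1 array of each age lay on the other side. With column as a term, which those mutant arrays alone inform, 530 genes were called and none of the 2352 genes called without it changed sign.

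In the retina and RPE at 1 year, most measured genes of the macrophage, complement, antigen presentation and interferon-stimulated lists were higher than at 1 month. No rod phototransduction or respiratory chain gene of the lists was called. Genes of the lens, a tissue next to the retina, were much lower. Genes of immature neurons and a few basement membrane genes were lower, and melanin genes were higher. Of the 19022 genes, 2352 were called (12.4%), with 1391 higher at 1 year (7.31%) and 961 lower (5.05%). Of these, 454 differed at least 2-fold (2.39%), 379 of them higher (1.99%) and 75 lower (0.394%). The groups did not overlap in 3591 genes (18.9%), 1744 of them higher (9.17%) and 1847 lower (9.71%). The median change over all genes was -0.03.

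**Figure D1:**
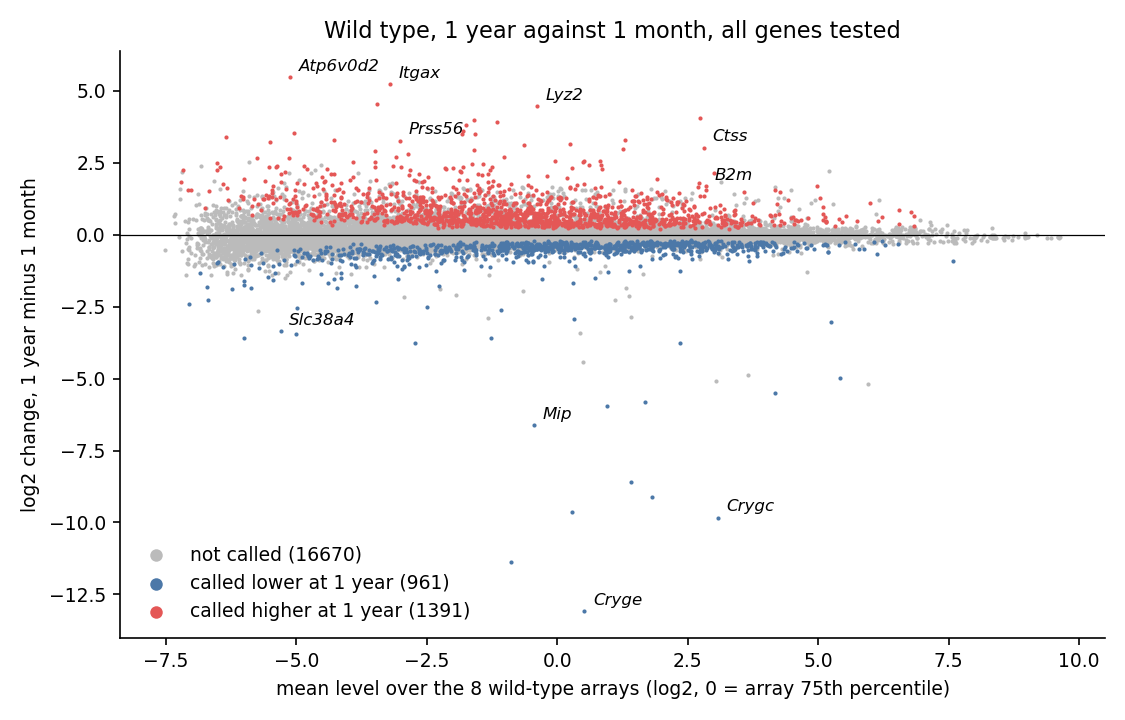
Log2 change from 1 month to 1 year in wild type (vertical axis) against the mean level over the 8 wild-type arrays (horizontal axis, log2), 1 point per gene tested. Of the 1391 genes called higher Itgax lies at 5.24, and of the 961 called lower Crygc lies at -9.83. Atp6v0d2, Slc38a4 and Cryge are drawn at fitted values that rest in part on signal not well above background.

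Among the 12 named genes with the largest rises, Itgax and Lyz2 belong to the list of activated microglia and macrophages. Itgax encodes the integrin CD11c of dendritic cells and activated microglia. Its levels were -5.96, -5.53, -6.27 and -5.50 on the 1-month arrays and -0.46, -0.92, -0.47 and -0.47 on the 1-year arrays. The groups lay far apart, and the probe was well above background on 3 of the 4 1-month arrays. The change was 5.24 ± 0.20 (37.7-fold, adjusted p = 7.15e-10, limma). Lyz2, the lysozyme gene of macrophages, had levels of -2.78, -2.38, -2.62 and -2.70 at 1 month and 1.99, 1.56, 2.05 and 1.76 at 1 year. All 1-year arrays were higher, by 4.46 ± 0.15 (adjusted p = 4.22e-10, limma). Its paralog Lyz1 rose by 4.07 ± 0.20 on the log2 scale, and whether the probes separate the pair was not tested.

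Atp6v0d2, a proton pump subunit of macrophages and osteoclasts, was not well above background on any 1-month array. Its 1-year levels were -2.48, -2.55, -1.88 and -2.61, at least 14.6-fold higher (adjusted p = 1.66e-06, limma), where the 1-month level is bounded by the dimmest signal marked above background. Il7r, a cytokine receptor subunit, was at least 7.87-fold higher by the same bound (adjusted p = 2.01e-07, limma). Pirb, an inhibitory receptor of myeloid cells, rose from levels of -3.66, -3.63, -3.73 and -3.42 to 0.25, -0.31, 0.08 and -0.01, without overlap. Wfdc17 (a log2 change of 3.91 ± 0.19), the C-type lectin Clec4d (3.82 ± 0.54) and Retnla (3.49 ± 0.31), a product of alternatively activated macrophages, also rose. Under the column term the Clec4d call was lost (2.38, adjusted p = 0.0883, limma), and those of Wfdc17 and Retnla were kept.

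S100a8 and S100a9, which form the neutrophil protein calprotectin, were less steady. At 1 month the S100a8 levels were -4.67, -6.28, -6.19 and -5.78, with the probe well above background on 2 arrays. At 1 year they were -1.04, -0.79, -0.21 and -2.69, higher on every array but spread over more than 2 log2 units. S100a8 rose by 4.55 ± 0.71 (adjusted p = 0.000648, limma) and S100a9 by 4.00 ± 0.73 (adjusted p = 0.00241, limma). Under the column term these changes were 2.86 (adjusted p = 0.146) and 2.10 (adjusted p = 0.33), no longer called. In the mutants the S100a8 change with age was -0.30. The platelet chemokine Ppbp, above background on 3 of the 4 1-year arrays and none at 1 month, was at least 3.05-fold higher (adjusted p = 0.047, limma). Its call held in 1 of 8 fits that each left out a wild-type array, the one without 1-year replicate 3, with adjusted p up to 0.125.

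Of 18 measured genes of activated microglia and macrophages, 14 rose and 1 fell, with a median log2 change of 1.11. Ctss, the lysosomal protease cathepsin S, had levels of 1.07, 1.12, 1.34 and 1.67 at 1 month and 4.52, 4.10, 4.53 and 4.19 at 1 year. The groups did not overlap and the change was 3.03 ± 0.13 (8.18-fold, adjusted p = 3.18e-09, limma). Ms4a7, a marker of macrophages that come from blood or lie at tissue borders, rose by 3.14 ± 0.18 on the log2 scale, and Mpeg1, which encodes the pore-forming perforin-2, by 2.52 ± 0.08. The gene that fell was Lyve1 (-0.55 ± 0.14), known from border macrophages and lymphatic vessels, and it was chosen for mention after its value was seen. Under the column term 9 of the 18 members were called higher, and with the lens, muscle, erythrocyte and cornea marker levels as covariates 8 were. The median was then 1.29 and 1.22. In wild type the lens covariate is itself separated by age. A call lost with the covariates therefore does not tell age from lens content.

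Homeostatic microglial genes rose in part. Of 15 measured, 6 were higher and 1 lower, with a median log2 change of 0.45. Trem2, a lipid receptor of microglia, went from levels of -0.75, -0.62, -0.45 and -0.58 to 1.83, 1.58, 1.99 and 1.86. Its adaptor Tyrobp went from -0.66, -0.31, -0.44 and -0.04 to 2.12, 1.72, 2.37 and 1.98. Neither pair of groups overlapped, and both rose by 2.41 on the log2 scale (SE 0.10 and 0.15). Aif1, the microglial protein Iba1, rose by 1.44 ± 0.13 and the growth factor receptor Csf1r by 0.56 ± 0.09. The fractalkine receptor gene Cx3cr1 had levels of -0.77, -1.09, -1.04 and -1.36 against -0.34, -0.91, -1.14 and -0.27. Its groups overlapped and it was not called (0.40 ± 0.19, adjusted p = 0.205, limma). Tmem119 (0.45 ± 0.14, adjusted p = 0.0504, limma) and P2ry12 (0.40 ± 0.35) were not called either. The 1 gene of the list that fell was Sall1 (-0.87 ± 0.17), a transcription factor of microglial identity, named after its value was seen. In bulk tissue more cells of a type and more RNA per cell cannot be told apart.

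**Figure D2:**
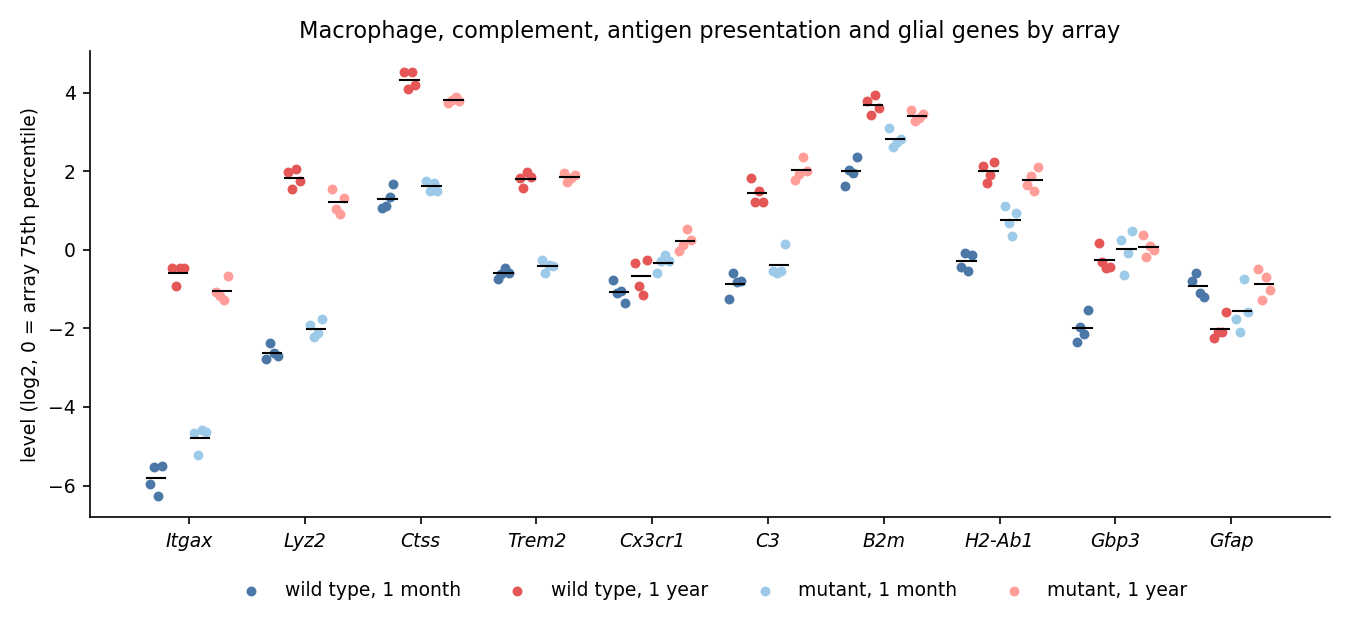
Level of 10 genes on each array (log2, 0 = the array's 75th percentile), by genotype and age, 4 points per group with the group mean as a line. In wild type Itgax, Lyz2, Ctss, Trem2, C3, B2m, H2-Ab1 and Gbp3 are separated by age, Gfap is separated with the 1-year arrays lower, and the ages overlap in Cx3cr1.

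Complement, a cascade of plasma and tissue proteins that tags surfaces for removal, rose in 14 of 17 measured members and fell in none, with a median log2 change of 1.26. The central component C3 had levels of -1.24, -0.60, -0.83 and -0.80 at 1 month and 1.83, 1.22, 1.50 and 1.22 at 1 year. The groups did not overlap, and the change was 2.31 ± 0.20 (4.95-fold, adjusted p = 2.89e-06, limma). Chains of C1q, which starts the classical pathway, rose by 1.42 ± 0.12 (C1qa), 1.25 ± 0.14 (C1qb) and 1.78 ± 0.13 (C1qc) on the log2 scale. Cfb, the alternative pathway protease, rose by 2.34 ± 0.18 and Itgb2, a subunit of complement receptor integrins, by 1.62 ± 0.14. The number called higher was 14 in each of the 8 fits without a wild-type array. The column term left 10 members called, and with the neighbouring tissue markers as covariates 8.

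MHC class I molecules show peptides of the cell's interior to T cells, and the immunoproteasome, the TAP transporter and beta-2 microglobulin serve them. All 13 measured genes of this pathway rose, with log2 changes from 0.54 to 1.69 and a median of 1.35. B2m, the light chain, had levels of 1.63, 2.04, 1.96 and 2.37 at 1 month against 3.79, 3.44, 3.94 and 3.62 at 1 year. Every 1-year array was higher, by 1.69 ± 0.15 (3.23-fold, adjusted p = 4.42e-06, limma). The heavy chains H2-K1 (1.55 ± 0.13), H2-D1 (1.42 ± 0.12), H2-Q7 (1.34 ± 0.10) and H2-T23 (1.28 ± 0.13) also rose. These genes are close paralogs, and probes may not separate them. Psmb9, a catalytic subunit of the immunoproteasome, rose by 1.42 ± 0.15 on the log2 scale. The count of 13 held without any 1 wild-type array. It was 10 with array column as a term and 8 with the neighbouring tissue covariates.

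MHC class II genes, of antigen presenting cells, rose in 7 of 8 cases, with a median log2 change of 1.41. H2-Ab1 had levels of -0.43, -0.07, -0.55 and -0.13 at 1 month and 2.13, 1.71, 1.91 and 2.24 at 1 year. The groups did not overlap, and the change was 2.29 ± 0.18 (4.89-fold, adjusted p = 1.65e-06, limma). H2-Eb1 rose by 2.57 ± 0.22, H2-Aa by 2.29 ± 0.26 and the peptide-loading chain H2-DMb1 by 1.46 ± 0.14 on the log2 scale. The invariant chain Cd74 was uneven at 1 month, at -0.69, -0.27, 0.22 and 1.31, and the last of these lay within the 1-year levels of 1.50, 1.26, 1.62 and 1.65. It rose by 1.36 ± 0.32 (adjusted p = 0.0119, limma). Its call was lost under the column term (1.00, adjusted p = 0.377) and with the neighbouring tissue covariates (1.48, adjusted p = 0.222), and 4 members of the list were called under either.

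Interferon-stimulated genes are switched on by a complex of STAT and IRF factors that binds the interferon stimulated response element. Of 26 measured, 17 rose and none fell, with a median log2 change of 1.15. The guanylate-binding proteins Gbp3 and Gbp4 and the immunity-related GTPase Irgm1 act against intracellular microbes. Gbp3 went from levels of -2.35, -1.96, -2.14 and -1.52 to 0.17, -0.32, -0.45 and -0.43, without overlap (1.73 ± 0.24, adjusted p = 0.000211, limma). Gbp4 rose by 1.43 ± 0.17, Irgm1 by 1.15 ± 0.14 and the membrane protein Ifitm3 by 1.41 ± 0.20 on the log2 scale. Ifit1 and Isg15 are widely used as reporters of interferon. Ifit1 rose by 0.78 ± 0.23 (adjusted p = 0.0373, limma), a call that held in 2 of the 8 fits without a wild-type array, those without 1-month replicate 1 or 1-year replicate 3, with adjusted p up to 0.127. Isg15 was not called, at 0.47 ± 0.15 (adjusted p = 0.0525, limma). With the neighbouring tissue markers as covariates 3 of the 26 members were called and the median was 0.88. The column term left 12 called.

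Promoter windows from RefSeq (GRCm38.p6, 250 bases before to 50 after a start site) show how often the core of that element occurs near genes that moved together. The motif searched was GAAA, any 2 bases and GAAA again, on either strand (the reverse reads TTTC, any 2 bases, TTTC), with overlapping matches counted as 1 window. It occurred in 1131 of 32851 windows (3.44%) and, of the tested genes with a window, in 590 of 15053 (3.92%). It was present for 8 of 12 interferon-stimulated genes that rose and had a window (66.7%), for 3 of 6 of that list that were not called, for 3 of 11 class I pathway genes (27.3%) and for 0 of 5 class II genes. Over all genes it was present for 81 of 1093 called higher (7.41%), 27 of 762 called lower (3.54%) and 482 of 13198 not called (3.65%). A match is a description of these letters and not a bound site. The stretches below are those of the 4 called class I or interferon genes with the smallest adjusted p and a match before the start site. Each reads 5′ to 3′ on the strand of the gene, with the motif in capitals (overlapping copies run together), for B2m at chr2:122147508-122147597 (+), H2-T23 at chr17:36032776-36032865 (-), Irgm1 at chr11:48871421-48871484 (-) and Gbp3 at chr3:142559965-142560043 (+).
B2m: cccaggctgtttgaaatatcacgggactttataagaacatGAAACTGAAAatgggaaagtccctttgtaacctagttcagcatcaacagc
H2-T23: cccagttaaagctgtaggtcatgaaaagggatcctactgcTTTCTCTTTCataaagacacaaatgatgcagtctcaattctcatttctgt
Irgm1: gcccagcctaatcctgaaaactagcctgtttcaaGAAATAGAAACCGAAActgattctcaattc
Gbp3: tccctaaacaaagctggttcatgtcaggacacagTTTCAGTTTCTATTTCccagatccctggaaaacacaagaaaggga
B2m carries the motif in the sense direction, as does Irgm1 with 2 overlapping copies, while H2-T23 and Gbp3 carry the reverse, Gbp3 also with 2 copies. In Irgm1 the copy nearest the start site begins 24 bases before it, and in B2m 139 bases before it.

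Chemokines, which draw leukocytes into tissue, rose in 7 of 16 cases and fell in 1, with a median log2 change of 0.82. Ccl8, a ligand for monocytes, went from levels of -4.44, -4.89, -5.09 and -5.43 to -1.54, -1.99, -2.51 and -2.09, without overlap (2.93 ± 0.27, adjusted p = 6.06e-06, limma). Cxcl10, induced by interferon gamma, rose by 2.36 ± 0.35, the monocyte ligands Ccl2 by 1.30 ± 0.20 and Ccl12 by 1.27 ± 0.22, and the neutrophil ligands Cxcl1 by 1.92 ± 0.28 and Cxcl5 by 2.52 ± 0.43 on the log2 scale. Cxcl1 and Cxcl5 were no longer called with array column as a term (1.70, adjusted p = 0.056, and 1.92, adjusted p = 0.16). The chemokine that fell was Ccl28 (-0.78 ± 0.16, adjusted p = 0.00631, limma), which is made by mucosal epithelium. It too was not called under the column term (-0.86, adjusted p = 0.108). With the neighbouring tissue covariates 3 chemokines were called higher and none lower, and Ccl2 (adjusted p = 0.103), Cxcl10 (adjusted p = 0.0613) and Ccl12 (adjusted p = 0.116) lost their calls.

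Of 16 lymphocyte and plasma cell genes 3 rose and 1 fell, with a median log2 change of -0.13. The T cell receptor chain gene Cd3d was not well above background on any 1-month array and was at least 2.43-fold higher at 1 year (adjusted p = 0.00485, limma). The lymphotoxin gene Ltb went from levels of -4.78, -4.56, -4.97 and -4.90 to -3.51, -3.62, -3.31 and -3.48, without overlap. The B cell chain Cd79a (-0.16 ± 0.20) and the T cell chain Cd3e (-0.15 ± 0.18) were not called, and their groups overlapped. Jchain, of plasma cells, fell by 0.61 on the log2 scale (SE 0.11). The Cd3d call was lost under the column term (adjusted p = 0.099) and with the neighbouring tissue covariates (adjusted p = 0.103), and the Jchain call with the covariates (adjusted p = 0.287).

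Of 18 genes of reactive gliosis 7 rose and 1 fell, with a median log2 change of 0.25. C4b, Gbp2, the protease inhibitor Timp1, the NF-kappa-B cofactor Bcl3 and the oncostatin M receptor Osmr rose by 1.38 ± 0.17, 1.84 ± 0.17, 2.18 ± 0.24, 1.73 ± 0.22 and 0.83 ± 0.11. Gfap, the intermediate filament of reactive Müller glia and of astrocytes, was the one that fell. Its levels were -0.79, -0.60, -1.09 and -1.20 at 1 month and -2.25, -2.10, -2.09 and -1.59 at 1 year. No arrays overlapped, and the change was -1.09 ± 0.26 (2.13-fold lower, adjusted p = 0.0131, limma). It was -1.38 with array column as a term (adjusted p = 0.0968, limma). With the neighbouring tissue covariates the Gfap change was -0.82 (adjusted p = 0.421, limma). Neither was called. Of 12 Müller glia genes 3 rose, with a median of 0.07: the retinoid carrier Rlbp1, shared with the RPE (0.47 ± 0.10), the transcription factor Sox9 (0.36 ± 0.08) and the lipid carrier Apoe (0.48 ± 0.12). The Apoe call was lost without 1-month replicate 1 or 1-year replicate 1 (adjusted p up to 0.057). None of these 3 calls was kept under the column term or with the neighbouring tissue covariates. With the covariates the changes were 0.51 (Rlbp1), 0.47 (Sox9) and 0.62 (Apoe), not smaller than without them. Glutamine synthetase, Glul, was not called (0.12 ± 0.10).

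**Figure D3:**
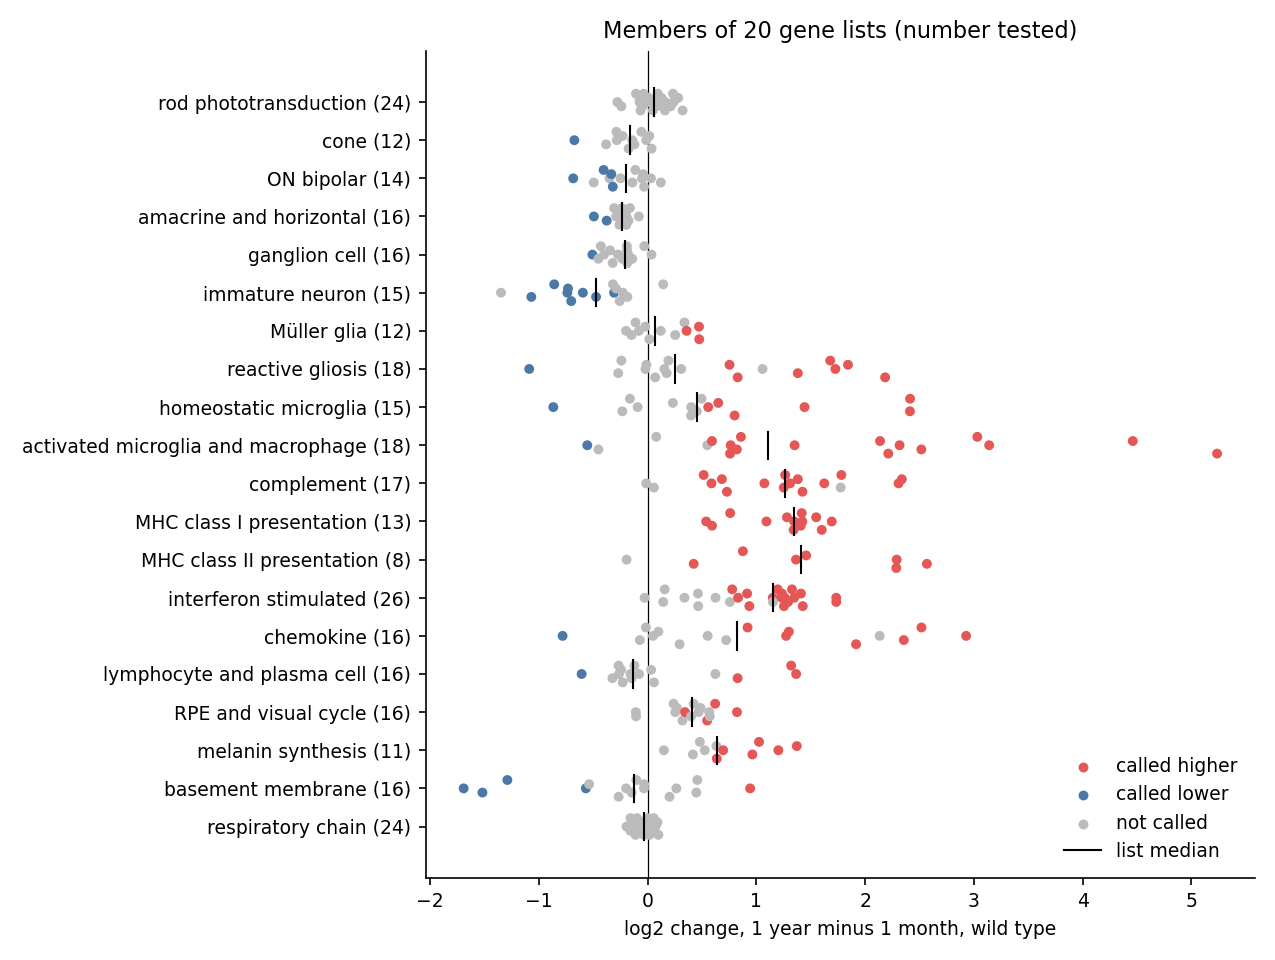
Log2 change from 1 month to 1 year in wild type for the members of 20 gene lists, 1 point per gene, coloured by call, with the list median as a black line. All 13 class I genes and 14 of 17 complement genes are called higher, 8 of 15 immature neuron genes are called lower, and the 24 rod and 24 respiratory chain genes lie around 0 with no call.

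Rods turn light into a signal through a visual pigment, transducin and a phosphodiesterase. None of 24 rod phototransduction genes was called, where 12.4% of all genes were, and 5 of them had an unadjusted p under 0.05 (limma), as 5029 of all 19022 genes did. Their changes ran from -0.28 to 0.32 with a median of 0.06. The rod transducin gene Gnat1 was slightly higher on each 1-year array (0.16 ± 0.06, adjusted p = 0.129, limma) and was not called. Of 12 cone genes only the M-opsin gene Opn1mw was called (8.33%). It fell from levels of 3.72, 3.70, 3.71 and 3.98 to 3.02, 3.11, 3.32 and 2.96, without overlap (-0.67 ± 0.13, adjusted p = 0.00407, limma). The S-opsin gene Opn1sw was not called (0.04 ± 0.15). Opn1mw under the column term was -0.56 (adjusted p = 0.21).

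Inner retinal genes had negative median changes. Of 14 ON bipolar genes 4 fell, with a median log2 change of -0.19. All 16 amacrine and horizontal cell genes had negative changes (median -0.24). Of those 16, 2 were called (12.5%), near the 12.4% of all genes that were. Isl1, a homeobox gene of bipolar, amacrine and ganglion cells, fell from levels of 1.56, 1.49, 1.48 and 1.75 to 0.72, 1.06, 0.77 and 1.00, without overlap (-0.68 ± 0.12, adjusted p = 0.00225, limma). The ganglion cell and neuronal tubulin gene Tubb3 fell by 0.51 (SE 0.11), the only one of 16 ganglion cell genes called (6.25%, median -0.21). Grm6, the glutamate receptor of ON bipolar cells, and its channel Trpm1 were not called (-0.04 ± 0.10 and -0.11 ± 0.15). The falls of Gpr179 and Tfap2b were each called in only 1 of the 8 fits without a wild-type array, with adjusted p up to 0.125 and 0.106. With array column as a term, or with the neighbouring tissue covariates, no ON bipolar, amacrine or ganglion cell gene was called, and the ganglion cell median was -0.02 and 0.09.

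Genes of immature neurons are active while neurons grow axons and migrate. Of 15 measured 8 fell and none rose, with a median log2 change of -0.47. Marcksl1, of growth cones, had levels of -0.01, 0.15, 0.25 and 0.73 at 1 month and -0.75, -0.75, -0.81 and -0.85 at 1 year, without overlap (-1.07 ± 0.16, adjusted p = 0.0004, limma). Nrep went from 2.77, 3.03, 3.02 and 3.26 to 2.04, 2.23, 2.13 and 2.25 (-0.86 ± 0.10, adjusted p = 7.38e-05, limma). Its groups did not overlap either. The microtubule protein doublecortin, Dcx (-0.70 ± 0.12), the transcription factors Sox4 (-0.59 ± 0.09) and Sox11 (-0.73 ± 0.15) and the axon guidance protein Dpysl3 (-0.47 ± 0.08) also fell. Between 7 and 9 members were called lower without any 1 wild-type array, and 3 with array column as a term, where the median was -0.49. With the neighbouring tissue covariates 3 were called and the median was -0.29.

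Among 14 growth genes that are imprinted or tied to imprinting, Slc38a4, an amino acid transporter of fetal tissues, was well above background on all 1-month arrays and on no 1-year array. It was at least 6.29-fold lower at 1 year (adjusted p = 7.67e-05, limma). The long noncoding RNA Meg3 fell by 0.73 (SE 0.20, adjusted p = 0.0286, limma), with a call that held in 4 of 8 fits without a wild-type array. The calls were lost without 1-month replicate 1 or 1-year replicates 1, 2 or 3, with adjusted p up to 0.0814. Igf2r rose by 0.30 ± 0.07, and Igf2 was not called (-0.14 ± 0.16). Under the column term, or with the neighbouring tissue covariates, the 1 call left in the list was that of Slc38a4. Of 23 cell cycle genes 3 rose (13%), near the 12.4% of all genes that were called. They were the replication licensing genes Mcm2 (0.60 ± 0.10), Mcm3 (0.80 ± 0.18) and Mcm4 (0.30 ± 0.08), while the proliferation marker Mki67 was not called (0.29 ± 0.37). The Mcm4 call was lost without 1-month replicate 1 or 1-year replicates 1 or 2 (adjusted p up to 0.0602). No cell cycle gene was called under the column term or with the neighbouring tissue covariates, and under the latter the list median turned from 0.13 to -0.25.

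Of 11 melanin genes measured 6 rose and none fell, with a median log2 change of 0.64. Tyrp1, a melanosomal oxidase, had levels of 3.25, 3.78, 4.15 and 4.14 at 1 month and 4.90, 4.86, 5.33 and 5.04 at 1 year, without overlap (1.20 ± 0.20, 2.30-fold, adjusted p = 0.0013, limma). Slc45a2, a melanosomal transporter, rose from -1.60, -1.30, -1.12 and -0.98 to -0.17, 0.09, 0.69 and -0.11, also without overlap (1.37 ± 0.21, adjusted p = 0.000673, limma). Mitf, the transcription factor of pigment cells, rose by 1.02 ± 0.19 and Rab38, of melanosome transport, by 0.96 ± 0.17. Tyrosinase, Tyr, the first enzyme of the pathway, was not called (0.15 ± 0.12). The count of melanin genes called ran from 4 to 8 without any 1 wild-type array. It was 3 with array column as a term and 0 with the neighbouring tissue covariates, where the median was 0.78 and 0.72. RPE and choroidal melanocytes share these genes, and how much RPE and choroid each sample held was not measured.

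The visual cycle and other RPE genes had a median log2 change of 0.41, with 4 of 16 called higher and none lower. The retinoid isomerase gene Rpe65 had levels of 3.07, 3.42, 3.66 and 3.75 at 1 month and 3.97, 3.70, 3.94 and 4.00 at 1 year. Those groups overlap, and the change of 0.42 ± 0.17 was not called (adjusted p = 0.134, limma). Ttr, which carries retinol and thyroxine, rose by 0.62 ± 0.15 and the retinol receptor Stra6 by 0.55 ± 0.13. The Stra6 call was lost without 1-year replicate 1 (adjusted p = 0.0569). Between 1 and 7 members were called without any 1 wild-type array, and none with array column as a term.

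**Figure D4:**
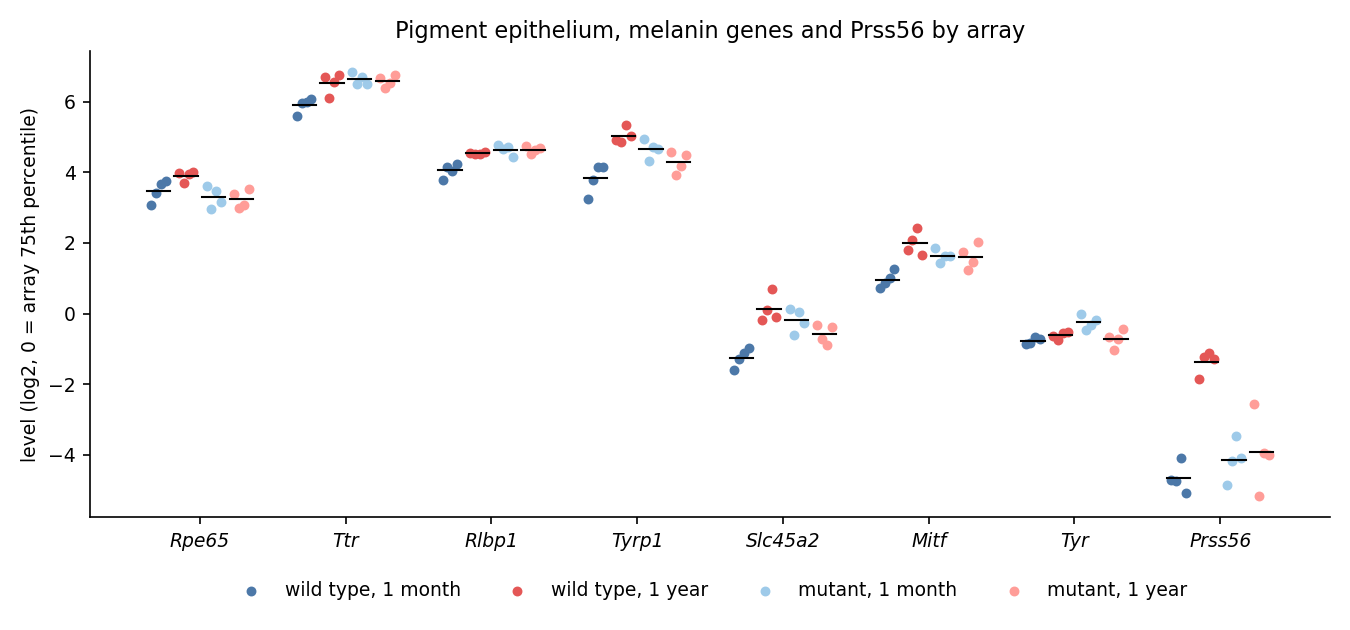
Level of 8 genes on each array (log2, 0 = the array's 75th percentile), by genotype and age, 4 points per group with the group mean as a line. In wild type Tyrp1, Slc45a2, Mitf and Prss56 are higher on every 1-year array, whereas the ages overlap in Rpe65 and Tyr.

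Extracellular matrix genes moved both ways. Of 16 basement membrane genes 4 fell and 1 rose, with a median log2 change of -0.13. Col4a1, a chain of the ubiquitous type IV collagen, went from levels of 0.37, 1.61, 1.22 and 1.40 to -0.40, -0.73, -0.53 and -0.51, without overlap (-1.69 ± 0.35, 3.23-fold lower, adjusted p = 0.00566, limma). Its partner Col4a2 fell by 1.52 (SE 0.29) and the laminin chain gene Lama1 by 0.57 (SE 0.11). Col4a3, of the chain set found in mature basement membranes, rose from -2.37, -1.74, -1.79 and -1.69 to -1.12, -0.83, -1.45 and -0.43 (0.94 ± 0.19, adjusted p = 0.00541, limma), without overlap. Of 22 fibrillar collagen and matrix genes 4 rose and 2 fell (median 0.04). The small proteoglycans lumican, Lum (1.81 ± 0.27), decorin, Dcn (0.88 ± 0.21), and biglycan, Bgn (0.85 ± 0.16), rose, and Sparc, which binds collagen, fell by 0.92 (SE 0.12). Col1a1 and Col3a1 were not called (-0.67 ± 0.34 and 0.02 ± 0.21). With array column as a term, or with the neighbouring tissue covariates, no basement membrane gene was called. Of the fibrillar and matrix genes 1 rose and 1 fell under the column term, and none was called with the covariates. The lens capsule is rich in type IV collagen, and genes of the lens list were lower at 1 year too, as given next. With the neighbouring tissue covariates the changes of Col4a1 and Col4a2 were -1.08 and -1.17. Whether lens RNA bears on their falls was not tested.

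Among named genes called without overlap, the 12 with the largest falls were crystallins and other genes of the lens fibre. Of 17 lens genes 9 fell and none rose, with a median log2 change of -4.43, and in 16 all 1-year arrays lay below all 1-month arrays. The mean level of the 17 genes was 3.50, 3.54, 3.87 and 3.27 at 1 month and 0.65, -2.63, -1.11 and 0.72 at 1 year. Lens RNA was thus measured on every 1-month array and on the 1-year arrays in unequal amount. Cryaa, the alpha-crystallin of the lens, was at 8.43, 8.76, 8.70 and 8.30 at 1 month and at 5.83, -1.27, 3.36 and 5.55 at 1 year. All 1-year arrays were lower, and the spread at 1 year left it short of the call (-5.18 ± 1.64, adjusted p = 0.0539, limma).

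The gamma-crystallins are structural proteins of the lens fibre. Crygd had levels of 6.33, 5.94, 6.98 and 6.30 at 1 month and -2.60, -2.78, -2.87 and -2.74 at 1 year. Those 1-year levels span under 1 log2 unit, where Cryaa spans several, and the change was -9.13 ± 1.03 (561-fold lower, adjusted p = 4.01e-05, limma). Crygc (-9.83 ± 1.09), Crygf (-9.63 ± 0.88) and Cryga (-8.61 ± 0.95) fell by amounts of that order. Cryge (-13.08 ± 1.18) and Crygb (-11.39 ± 1.44) fell most, each with its probe well above background on 2 of the 4 1-year arrays. These genes are near-identical copies, and which of them each probe measures is uncertain. With the neighbouring tissue covariates, the lens list among them, the change was -6.28 for Crygd and -12.00 for Cryge. It was -0.19 for Mip, the lens water channel, and 0.40 for Crygs, both called without the covariates (-6.62 ± 1.85 and -4.96 ± 1.50). Mip and Crygs belong to the lens list whose mean is the covariate, so their own change enters it, whereas Crygd and Cryge do not belong to it.

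The calls of Mip and Crygs held in 2 of the 8 fits without a wild-type array, those without 1-year replicate 1 or 4, with adjusted p up to 0.0894 and 0.121. The beta-crystallin genes Crybb1 (-5.96 ± 1.40) and Crybb3 (-5.82 ± 1.32) held in all 8. Under the column term they were -7.49 (adjusted p = 0.0911) and -7.03 (adjusted p = 0.0984), and none of the 9 lens list calls was kept, with a list median of -5.82. Cryba1 (-5.51 ± 1.41) was lost without 1-year replicate 2 (adjusted p = 0.0597). Lim2, a membrane protein of lens fibres (-3.78 ± 1.05), held only without 1-year replicate 4 and otherwise reached an adjusted p of up to 0.0725.

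Markers of other neighbouring tissues were measured too. Cornea and surface epithelium genes had a median log2 change of 1.31 with none of 10 called (1 at an unadjusted p under 0.05, limma), and mean levels of 0.17, 1.91, 2.44 and 0.75 at 1 month against 4.03, 2.76, 0.10 and 3.08 at 1 year. On 1-year replicate 3 they were lower than on any 1-month array, and without that array 4 members were called higher, with a median of 2.16. Muscle genes had a median of 0.90 with 1 of 14 called (7.14%, where 12.4% of all genes were). It was the myosin gene Myh4 (1.47 ± 0.46, adjusted p = 0.0484, limma). That call held only without 1-month replicate 4, and adjusted p was otherwise up to 0.131. Erythrocyte genes had a median of 0.02 with none of 5 called, and 0 at an unadjusted p under 0.05. With the 4 marker levels as covariates 463 genes were called, 380 higher and 83 lower, and 438 of the 2352 kept their call and direction. The part of lens, cornea and muscle RNA in the other calls was not tested gene by gene.

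**Figure D5:**
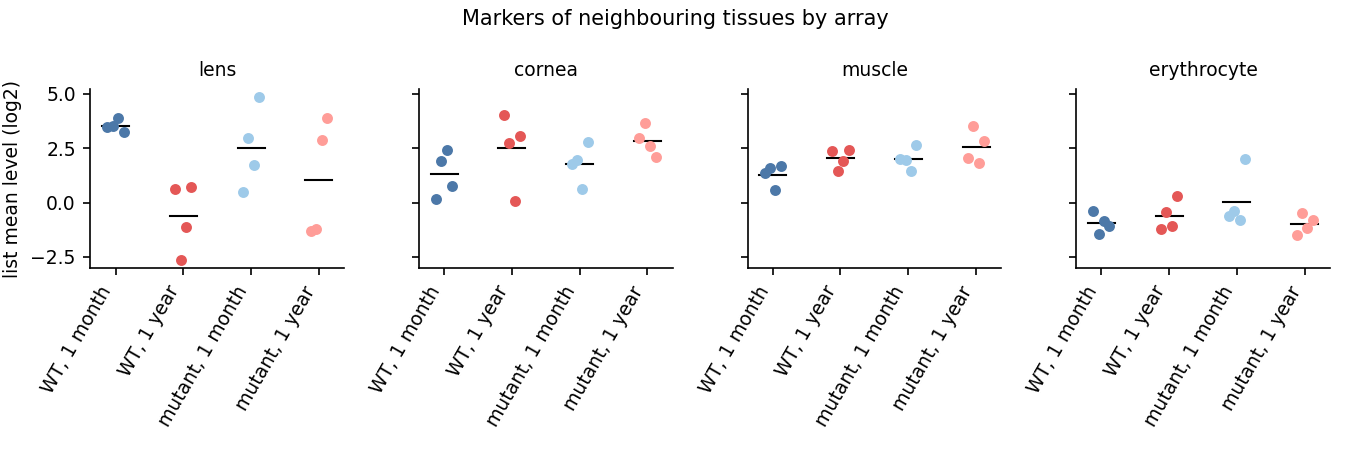
Mean level (log2, 0 = the array's 75th percentile) of the 17 lens, 10 cornea, 14 muscle and 5 erythrocyte genes on each array, 4 points per group with the group mean as a line. In wild type the lens mean is above 3 at 1 month and below 1 at 1 year, and the other 3 overlap between ages.

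Of 17 endothelial and pericyte genes 4 rose (median log2 change 0.18), among them von Willebrand factor, Vwf (0.81 ± 0.18), the endothelial sialomucin Emcn (0.63 ± 0.14) and the pericyte gene Rgs5 (0.67 ± 0.13). The pan-endothelial markers Pecam1 (-0.10 ± 0.14) and Cdh5 (0.19 ± 0.16) were not called. Of 10 tip cell and sprouting genes 3 rose, including the peptide hormone Apln (0.87 ± 0.17), the chemokine receptor Cxcr4 (0.61 ± 0.13) and Esm1 (0.86 ± 0.22). The Esm1 call was lost without 1-month replicates 1 or 3 or 1-year replicate 4 (adjusted p up to 0.0657). None of these vessel genes was called under the column term.

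Of 13 p53 and senescence genes 3 rose and 1 fell. Among them the p53 target Phlda3 rose by 0.79 ± 0.16 and the stress cytokine Gdf15 by 0.74 ± 0.17. The cell cycle inhibitors Cdkn1a (0.38 ± 0.34) and Cdkn2a (0.38 ± 0.26), used as senescence markers, were not called. Of 15 genes of the unfolded protein and heat shock responses 3 rose (median 0.23), with calreticulin, Calr, at 0.47 ± 0.10. That count was 2 or 3 without any 1 wild-type array other than 1-year replicate 4, and 8 without that array. The chaperone Hspa5 was not called (0.49 ± 0.15, adjusted p = 0.0524, limma). Of 15 oxidative stress and metal genes 3 rose, among them the metallothionein Mt2 (0.53 ± 0.13), while Hmox1 (-0.30 ± 0.42) and Nqo1 (-0.09 ± 0.17) were not called. No gene of these 3 lists was called under the column term or with the neighbouring tissue covariates.

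None of 24 respiratory chain genes was called, and 0 had an unadjusted p under 0.05 (limma), with log2 changes from -0.19 to 0.10 (median -0.03). Cholesterol synthesis had 2 of 21 higher (9.52%, where 12.4% of all genes were called, median 0.19). Oligodendrocyte genes had 1 of 12 higher (8.33%), Sox10 (0.59 ± 0.11). Of 17 collagen processing genes 3 rose and 2 fell, with the procollagen enhancer Pcolce at 1.06 ± 0.19 and the procollagen protease Bmp1 at -0.61 ± 0.11. Photoreceptor ribbon synapse genes had 1 of 12 lower (8.33%), Ctbp2, which encodes the ribbon protein RIBEYE (-0.35 ± 0.09). Its call was lost without 1-month replicate 4 or 1-year replicates 1, 2 or 4 (adjusted p up to 0.0704). No gene of the cholesterol, oligodendrocyte, collagen processing or ribbon synapse lists was called under the column term or with the covariates.

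Of 17 clock genes 1 rose and 2 fell (17.6% called, where 12.4% of all genes were, median 0.01). The repressor gene Ciart fell from levels of -0.03, -0.18, -0.28 and -0.07 to -0.91, -0.51, -0.70 and -0.43, without overlap (-0.50 ± 0.11, adjusted p = 0.00892, limma). No clock gene was called under the column term or with the covariates. The core genes Arntl (-0.01 ± 0.09) and Per1 (-0.19 ± 0.12) were not called. Of 14 immediate early genes only Egr2, a factor of myelination and of macrophages, was called (7.14%). It rose from -5.25, -4.73, -4.30 and -4.69 to -2.13, -1.54, -2.39 and -2.82, without overlap (2.52 ± 0.23, 5.73-fold, adjusted p = 6.54e-06, limma). Fos (-0.76 ± 0.38) and Egr1 (-0.19 ± 0.47) were not called.

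Over all probes, named or not, 2797 of 49230 were called (5.68%), with 1630 higher (3.31%) and 1167 lower (2.37%). Probes for a genome region with no gene name were called in 335 of 13625 cases (2.46%), 112 higher and 223 lower, with a median log2 change of -0.18. Probes named by 1 gene were called in 2075 of 25075 cases, 1332 higher and 743 lower. The most raised unnamed probe, A_30_P01030726, was designed to chr16:92478986-92497610 (mm9) and went from -3.21, -3.75, -4.15 and -4.05 to -0.54, -0.33, -0.40 and -0.46. The most lowered, A_30_P01032975 at chr1:182685730-182689074 (mm9), went from -0.56, -0.96, 0.18 and -0.66 to -5.34, -4.77, -5.35 and -5.57. Neither pair of groups overlapped, and no gene annotation of mm9 was used here. For 598 called genes other probes were measured, and none of them was called in the opposite direction.

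The test of whether the wild-type age change differed from that in nm3342 mutants called 80 genes (0.421%), 27 with a more positive change in the mutants (0.142%) and 53 with a more negative one (0.279%). Of these 80, 64 were also called in wild type, and 26 of those had the same sign in the mutants. The 2 age changes share no array, but the wild-type change is itself part of the difference. A gene with a large wild-type change can thus be called in both, and the 64 are not an independent overlap. Prss56, a serine protease known for its part in eye size and made by Müller glia, rose in wild type from levels of -4.72, -4.73, -4.08 and -5.07 to -1.86, -1.22, -1.12 and -1.30. The groups were far apart (3.27 ± 0.43, 9.66-fold, adjusted p = 0.000155, limma). In the mutants its change was 0.23, a difference of -3.05 between genotypes (adjusted p = 0.0469, limma). Pirb rose by 3.61 ± 0.13 in wild type and 1.72 in mutants (difference -1.90, adjusted p = 0.000438, limma). Col14a1, a fibril-associated collagen, rose by 1.65 ± 0.19 in wild type and was at -0.16 in mutants. Col3a1 was level in wild type (0.02 ± 0.21) and was at -2.11 in mutants, and Slc45a2 was at -0.41 in mutants.

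In the opposite direction, Edn2, the endothelin that injured photoreceptors release, had wild-type levels of -1.50, -1.29, -1.44 and -2.18 at 1 month and -1.76, -2.07, -1.92 and -1.62 at 1 year, which overlap. Its change was -0.24 ± 0.27 in wild type and 3.32 in mutants (difference 3.56, adjusted p = 0.000948, limma). The acute-phase lipocalin gene Lcn2 was at 0.07 ± 0.30 in wild type and 3.40 in mutants, and the transcription factor gene Cebpd at -0.27 ± 0.30 and 1.81. Calca, which encodes the neuropeptide CGRP, fell by 0.61 in wild type (SE 0.14) and was at 2.88 in mutants. Ccl28 fell by 0.78 in wild type and was at 1.31 in mutants. The count of 80 was 12 without the 3 mutant arrays that did not match the male label and 24 with array column as a term. It was 45, 43 and 47 without 1-month replicates 1, 2 and 3, and 43, 42 and 195 without 1-year replicates 1, 3 and 4.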

How the data were processed

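RNA of retina and RPE was hybridised to 16 Agilent 1-colour arrays, 4 for each genotype and age. Per the file headers, the authors' scanner files were made with Agilent Feature Extraction 11.0.1.1, with probes designed on mm9. The deposited spot intensities used were background-subtracted and spatially detrended within an array, with no scaling between arrays. A deposited matrix of log2 values served as an alternative, and its processing is not given in the sources used here. The deposited column marking spots well above background served as a filter.

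Levels were computed as log2 of the processed signal minus the array's 75th percentile, without outlier spots, and spots of a probe were averaged. Of 55681 non-control probes, 49230 were well above background on at least 4 of 16 arrays. Accessions matched RefSeq (GRCm38.p6) for 27235 probes, which name 20660 genes, and 28446 had no match. For a gene with several probes, the one brightest on average over the 16 arrays was used. limma 3.58.1 (R 4.3.3) fitted 4 group means over 16 arrays, with Benjamini-Hochberg adjustment, and was tested on simulated data. Where a probe was not well above background on any array of a group, the fold is a lower bound against the lowest signal among probes well above background.

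Genes named are, each way, the 12 called genes of largest fold whose groups do not overlap. They also include the first 2 members of each list with up to 4 further called members of smallest adjusted p. Fixed markers, the 5 largest differences between genotypes in each direction and the largest unnamed probe each way were added. RIKEN, clone and predicted names were left out. The 38 lists held 608 genes, of which 589 were tested. The members and lists were chosen with earlier results of these data known. No 2 arrays agreed closely enough to be 1 sample, the lowest SD of the difference within a group being 0.349 log2 units. Same-numbered replicates of different groups did not deviate together (correlations of -0.398 to -0.0582), so the numbers were not taken as pairs. Alternatives covered the normalization, background correction, deposited matrix, filters, probe choice, slide, array row, samples, tissue covariates, array weights and left-out arrays. Array column was added after seeing the data. Some members of the lists are not reported here by name.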

Additional observations from a re-analysis of the deposited data

Results flagged for a closer look

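Across 211 named genes, 422 wild-type groups of 4 arrays were examined for an array set apart from the other 3 by Dixon's criterion, which chance meets in about 1 group in 20, and 24 were found. Among immune genes, Itgax on 1-year replicate 2 was at -0.92 where the others lay from -0.47 to -0.46, and P2ry12 on 1-year replicate 1 was at -1.04 against -3.05 to -2.86. Irgm1 was at -0.94 on 1-month replicate 3, Cxcl1 at -3.52 on 1-year replicate 4, Cxcl5 at -6.32 and Ccl12 at -3.77 on 1-month replicate 4. Among eye genes, Crybb3 was at 4.05 on 1-month replicate 4 (others 4.75 to 4.83), Opn1sw at 0.08 on 1-year replicate 3, Opn1mw at 3.98 and Ctbp2 at 4.37 on 1-month replicate 4, and Rgr at 4.02 on 1-year replicate 2. Among matrix and vessel genes, Sparc was at 7.83 and Col4a3 at -2.37 on 1-month replicate 1, Loxl3 at -2.07 and Rgs5 at 0.06 on 1-month replicate 3, and Esm1 at 0 on 1-year replicate 4. Meg3 was at 3.64 on 1-month replicate 1. The respiratory chain gene Ndufv1 was set apart on replicate 4 of both ages, at 5.33 and 4.99. Hmox1 was at -0.03 on 1-year replicate 3, Cdkn1a at -0.46 on 1-year replicate 1 and Bbc3 at -0.10 on 1-month replicate 4. The clock gene Arntl was at 2.22 on 1-year replicate 3 and Tef at 5.82 on 1-year replicate 1.

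For 24 named genes the age change differed between genotypes by the test of the difference itself (limma, adjusted over all genes), given here as mutant minus wild type on the log2 scale. Some macrophage genes had less positive changes in the mutants: Itgax -1.51 (adjusted p = 0.032), Lyz2 -1.25 (adjusted p = 0.0253), Wfdc17 -1.73 (adjusted p = 0.0127), Pirb -1.90 (adjusted p = 0.000438) and Il7r -1.70 (adjusted p = 0.032). The same held for the antigen presentation and interferon genes B2m at -1.10 (adjusted p = 0.0382), H2-Ab1 at -1.27 (adjusted p = 0.0485), H2-Eb1 at -1.52 (adjusted p = 0.0496) and Gbp3 at -1.67 (adjusted p = 0.0472). By list, the difference was called for 3 of 18 activated microglia and macrophage genes and 1 of 13 class I genes. It was called for 2 of 8 class II and 1 of 26 interferon-stimulated genes, where 0.421% of all genes were called. Itgax, Lyz2, Wfdc17, Pirb and Il7r were named for the size of their wild-type rise, which is subtracted here. That choice favours negative differences, so the sign these genes share is not independent of it. Some list members, H2-Eb1 and Gbp3 among them, were named for a small adjusted p of their wild-type rise. That favours the same sign. Some genes, Pirb and Col3a1 among them, were named for the size of the difference itself. The count of 24 is therefore not independent of how genes were chosen. Levels at both ages enter all these differences. The class I list mean was 0.21 in mutants and -0.34 in wild type at 1 month, and 1.00 and 0.90 at 1 year. In that order it was -1.25, -1.82, -0.59 and -0.43 for class II and -0.27, -1.23, -0.02 and -0.26 for interferon-stimulated genes. It was -1.24, -1.65, -0.115 and 0.01 for activated microglia and macrophages, and 2.24, 1.58, 1.91 and 2.32 for melanin genes. Matrix and vessel genes were Col3a1 at -2.13 (adjusted p = 0.00678), Serpinh1 at -1.32 (adjusted p = 0.0157), Col14a1 at -1.82 (adjusted p = 0.0087) and Apln at -1.76 (adjusted p = 0.00452). Pigment genes were Tyrp1 at -1.58 (adjusted p = 0.0305) and Slc45a2 at -1.78 (adjusted p = 0.0198). Others with a more negative change were Gnat1 at -0.55 (adjusted p = 0.0172), Calr at -0.75 (adjusted p = 0.0292) and Prss56 at -3.05 (adjusted p = 0.0469). More positive in the mutants were Edn2 at 3.56 (adjusted p = 0.000948), Calca at 3.49 (adjusted p = 1.08e-06), Lcn2 at 3.33 (adjusted p = 0.00387), Ccl28 at 2.10 (adjusted p = 0.00111), Cebpd at 2.08 (adjusted p = 0.0483) and Ciart at 0.91 (adjusted p = 0.0234).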

How the results depend on the processing

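The count of 2352 genes was 189 on slide 1 alone and 725 on slide 2 alone (83.6% and 77.8% of them higher, against 59.1%). It was 463 with the lens, cornea, muscle and erythrocyte covariates (82.1% higher), 530 with array column as a term (75.5% higher), 4156 with array weights, and 1513 to 2187 without any 1 wild-type array, lowest without 1-year replicate 1. The 2797 probes became 103, 426, 432, 531 and 6133 in the same order of slide 1, slide 2, covariates, column and weights. They became 1363 on the 8 wild-type arrays alone and 1550 to 2528 without any 1 of them, with 1550 again without 1-year replicate 1 and 1816 without 1-month replicate 1. The 80 genes that differed between genotypes became 1 on slide 1, 0 on slide 2 (1285 at an unadjusted p under 0.05, limma), 24 with column, 1037 with weights, 12 without the mutant arrays not matching the male label, and 42 to 195 without any 1 wild-type array. With the replicate block the counts were 1882 genes, 1948 probes and 43 differences. The fit of 8 wild-type arrays holds no mutants and gives no difference. Of 149 named called genes, 146 kept their call and direction under quantile normalization and 143 under normexp, and 117 in all 8 fits without a wild-type array. Far fewer kept them with array column as a term (64), with the covariates (64), on slide 1 alone (50) and on slide 2 alone (71). Under the covariates the change of Crygs was 0.40, the only reversal among them. With 4 arrays a group, the smallest exact p for a single gene is 0.0286, and dim probes near background carry only bounds.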

Other observations

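Gene families, grouped by symbol, were chosen after their values were seen, so their counts are descriptions. Some members, Ctss, Ms4a7 and Krt8 among them, also belong to the lists above. Of 11 Toll-like receptor genes, the sensors of microbial products, 7 were called higher at 1 year and none lower, with a median log2 change of 1.02. Of 7 Fc receptor genes, which bind antibodies on myeloid cells, 4 were called higher (median 1.23), namely Fcer1g, Fcgr2b, Fcgr3 and Fcgr4. Of 15 cathepsin genes, lysosomal proteases, 6 were higher and Ctsf was lower (median 0.15). The Ms4a family had 4 of 16 genes higher, Ms4a7 among them, and none lower, with a median of 0.04. Among 92 potassium channel genes 2 were higher and 5 lower, with a median of -0.18. Over all genes 7.31% were called higher and 5.05% lower. Of 14 axonemal dynein genes 1 was higher and 3 were lower, and of 52 keratin genes 3 were higher.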
